A study of Mus musculus with 8 samples.

Results

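The cytokine leukemia inhibitory factor (LIF), the interleukin-6 (IL-6) family around it and the colony-stimulating factor CSF1 are described here by 10 genes, chosen by name from the 58825 genes of one expression table. They are the ligand genes LIF, IL6, IL23A and CSF1, the receptor genes LIFR, IL6R, OSMR and IL6ST, the transcription factor gene STAT3 and the feedback inhibitor gene SOCS3. All 10 had 1 row each. The study compared 4 libraries labelled rFGF4 (recombinant fibroblast growth factor 4) with 4 labelled PBS, the buffer control. Per the labels, every library holds total RNA from skin in a 2 mm zone round wounds of C57BL/6 mice aged 6 to 8 weeks, taken 6 days into the experiment. Nothing in the labels says whether the replicates of a group are different animals, so the p-values measure the spread between these libraries only.

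The table did not match that description, because each of the 58304 identifiers used from it is a human Ensembl gene and 0 are mouse genes. The values below belong to "rFGF4 libraries" and "PBS libraries" by column name alone, and none is attributed to mouse wounds. Counts summed to 62044121 to 73680756 a library, where 1 fragment may be worth about 4 counts. All 10 basal keratinocyte markers examined reached a mean of at least 1 FPKM (the fragments per kilobase of a gene, divided by the mapped fragments of the library), while 0 of 7 dermal fibroblast markers, 0 of 7 T and NK cell markers, 0 of 5 neutrophil markers, 0 of 5 dendritic cell markers and 1 of 8 macrophage markers did. That macrophage marker was CD68, a lysosomal protein found in many cell types. The pan-leukocyte gene PTPRC peaked at 0.0106 FPKM. Of 5 endothelial markers, 1 reached a mean of at least 1 FPKM, CDH5 at 1.52 FPKM. Their summed level was 3.08 to 4.09 FPKM in rFGF4 libraries and 1.86 to 3.09 FPKM in PBS libraries. That of the 7 fibroblast markers was 0.411 to 0.511 FPKM in rFGF4 libraries and 0.776 to 0.864 FPKM in PBS libraries, without overlap. That of the 8 macrophage markers was 8.16 to 11.04 FPKM in rFGF4 libraries and 7.72 to 8.86 FPKM in PBS libraries. Nearly all of it was CD68, at 7.85 to 10.6 FPKM in rFGF4 libraries and 7.19 to 8.55 FPKM in PBS libraries, which did not pass (edgeR adjusted p = 0.161). The 10 basal keratinocyte markers summed to 2202 to 2302 FPKM in rFGF4 libraries and 2389 to 2717 FPKM in PBS libraries. Most of that sum was KRT5 and KRT14, at means of 834 and 958 FPKM in rFGF4 libraries and 987 and 1093 FPKM in PBS libraries. Of the 10, the keratin gene KRT15 and the laminin gene LAMB3 fell by 0.56 and 0.28 on the log2 scale (edgeR adjusted p = 0.0184 and 0.0482). The other 8 did not pass, and TP63, ITGA6, ITGB4, COL17A1 and DST had log2 fold changes above 0. The median over the 10 was −0.047, so the markers did not fall as a set. The part of these shifts in the results below was not tested. In bulk RNA, fewer cells of a type and less RNA per cell cannot be told apart.

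Cytokines of the IL-6 family bind a receptor chain of their own and then the shared signalling chain gp130, the product of IL6ST. LIF uses LIFR with gp130, oncostatin M uses OSMR or LIFR with gp130, and IL-6 uses IL6R with gp130. The receptors activate JAK kinases, which phosphorylate STAT3; STAT3 induces SOCS3, which binds gp130 and JAK and shuts the signal down. In epidermis, oncostatin M and STAT3 are known for their part in keratinocyte activation and migration. IL23A encodes the p19 chain of interleukin-23, which pairs with the product of IL12B. CSF1 is the growth and survival factor of macrophages and acts through the receptor CSF1R.

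Of the 10 genes, 7 had a mean of at least 1 FPKM over the 8 libraries and were tested with edgeR's quasi-likelihood test on the deposited counts, with p-values adjusted over all 11536 genes at that level. In rFGF4 libraries LIF and IL23A rose and CSF1 fell, and the other 4 (OSMR, IL6ST, STAT3 and SOCS3) did not pass. Across all tested genes 5.49% rose and 4.54% fell. The FPKM of the groups did not overlap for the 2 genes that rose and the 1 that fell, as was so for 8.76% (rFGF4 higher) and 10.4% (rFGF4 lower) of all tested genes. LIFR, IL6R and IL6 lay under the level for testing and are described by their values in each library.

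**Figure D1:**
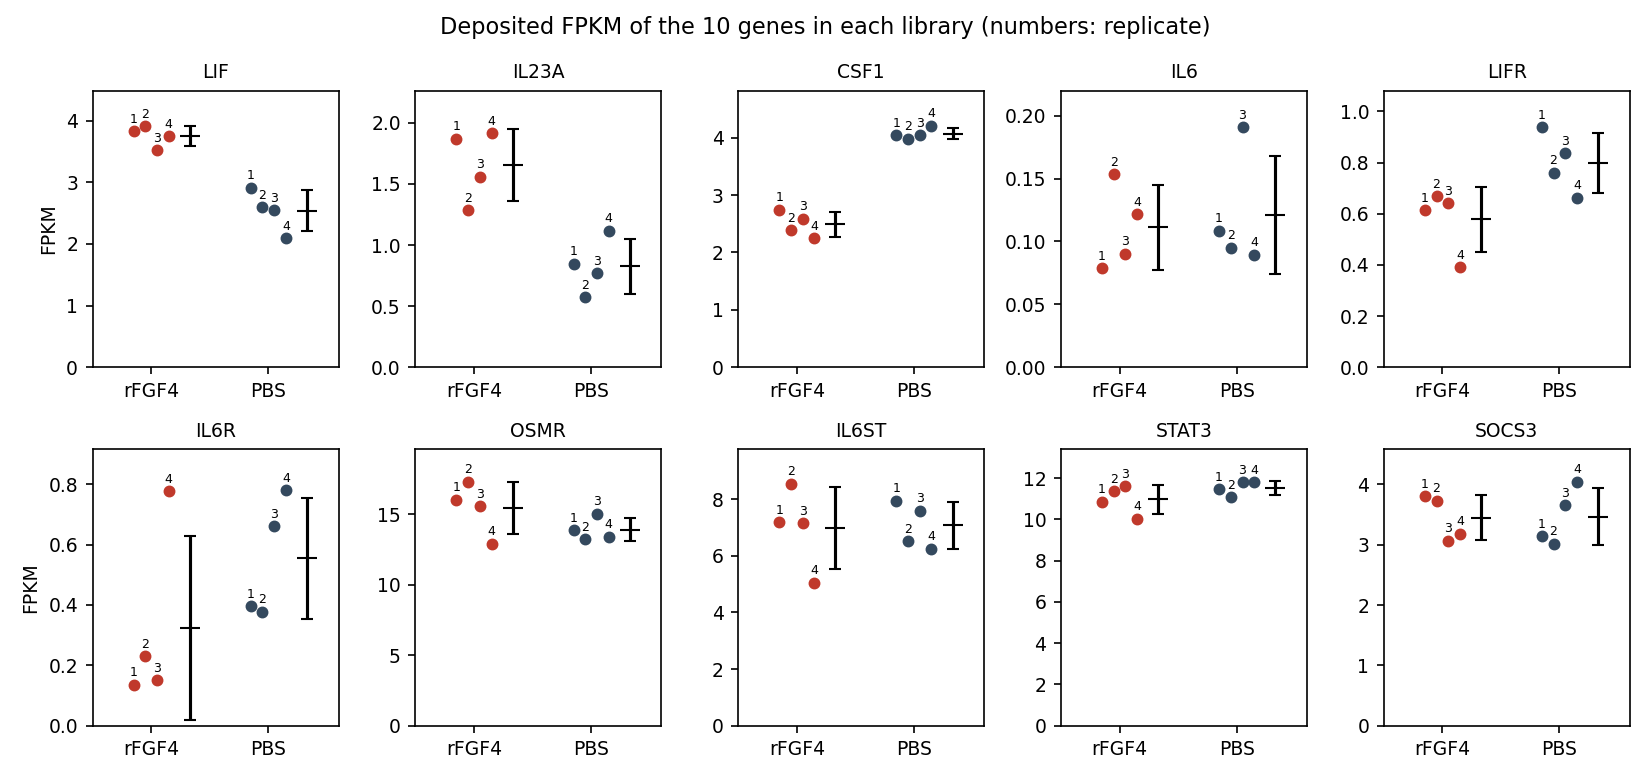
Each panel shows the FPKM of one gene (vertical axis, from 0) in the 4 rFGF4 libraries (red, left) and the 4 PBS libraries (dark, right), with the replicate number over each point and the mean ± SD as a black bar. LIF and IL23A are higher in every rFGF4 library than in any PBS library, CSF1 is lower in every one, and rFGF4 replicate 4 stands apart for IL6R.

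LIF, a ligand of LIFR, stood at 3.83, 3.91, 3.52 and 3.75 FPKM in rFGF4 replicates 1 to 4, against 2.92, 2.59, 2.55 and 2.10 FPKM in PBS replicates 1 to 4. Every rFGF4 library was above every PBS library. The fitted ratio was 1.503 (95% interval 1.28 to 1.77), which is 0.59 on the log2 scale (SE 0.10, edgeR adjusted p = 0.00945). The counts behind it were 1120 to 1296 in rFGF4 libraries and 631 to 990 in PBS libraries. The call held under the 17 other settings run, with log2 fold changes of 0.43 to 0.66 and adjusted p of 6.99e-06 to 0.0349. An antisense gene, AC004264, overlaps LIF by 555 bases and had 52 to 91 counts in rFGF4 libraries and 30 to 64 in PBS libraries. The sources do not state whether strand was used in counting, so reads of LIF and of this gene may be mixed, although the antisense gene had at most 91 counts.

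IL23A, the p19 chain of interleukin-23, stood at 1.87, 1.28, 1.56 and 1.92 FPKM in rFGF4 replicates 1 to 4, against 0.848, 0.575, 0.769 and 1.117 FPKM in PBS replicates 1 to 4. The groups did not overlap. The fitted ratio was 2.02 (95% interval 1.39 to 2.94), which is 1.02 on the log2 scale (SE 0.24, edgeR adjusted p = 0.0311). IL23A reached the level for testing through the rFGF4 libraries, since its mean was 1.66 ± 0.295 FPKM there and 0.827 ± 0.224 FPKM in PBS libraries (SD, n = 4 each). It rests on few counts, 130 to 196 in rFGF4 libraries and 53 to 103 in PBS libraries, where 1 fragment may be worth about 4 counts. The call ended with no filter on low values (adjusted p = 0.076) and on leaving out any 1 library other than PBS replicate 4 or rFGF4 replicate 2 (adjusted p 0.0643 to 0.0833); the direction was the same in all 17 other settings. IL12B, the gene of the chain with which p19 pairs, and IL12A were listed at 0 in all 8 libraries, and the receptor gene IL23R peaked at 0.045 FPKM.

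CSF1 stood at 2.74, 2.38, 2.59 and 2.25 FPKM in rFGF4 replicates 1 to 4, against 4.05, 3.98, 4.05 and 4.21 FPKM in PBS replicates 1 to 4. The PBS libraries lay close together and all above the rFGF4 libraries. The fitted ratio was 0.622 (95% interval 0.547 to 0.708), which is −0.68 on the log2 scale (SE 0.08, edgeR adjusted p = 0.00185). The call held under the 17 other settings run, with log2 fold changes of −0.73 to −0.54. Counts were 1023 to 1256 in rFGF4 libraries and 1564 to 1862 in PBS libraries. CSF1R, the receptor of CSF1 and a macrophage marker, averaged 0.029 FPKM in rFGF4 libraries and 0.019 FPKM in PBS libraries.

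LIF and CSF1 therefore exchanged places in the order of levels. The ratio of LIF to CSF1, both in FPKM and so independent of library scaling, was 1.40, 1.64, 1.36 and 1.67 in rFGF4 replicates 1 to 4 and 0.720, 0.651, 0.630 and 0.498 in PBS replicates 1 to 4. LIF was the higher of the pair in every rFGF4 library and the lower in every PBS library.

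**Figure D2:**
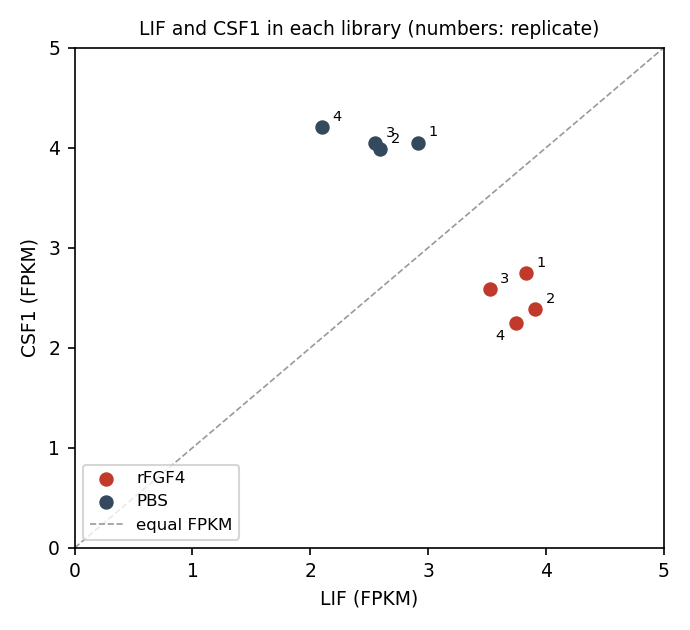
Each point is a library, with LIF on the horizontal and CSF1 on the vertical axis (both FPKM, from 0), rFGF4 in red and PBS in dark, and replicate numbers beside the points. The 4 rFGF4 libraries lie under the dashed line of equal FPKM, with LIF at 3.52 to 3.91, and the 4 PBS libraries lie over it, with CSF1 at 3.98 to 4.21.

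IL6, the ligand that names the family, was near the bottom of what was counted. It stood at 0.0789 to 0.153 FPKM in rFGF4 libraries, from 15 to 28 counts, and at 0.0894 to 0.191 FPKM in PBS libraries, from 16 to 30 counts. The groups overlapped, and the difference in mean log2(FPKM + 0.1) was −0.06 (exact permutation test, two-sided, p = 0.743). No difference in IL6 was detected at these counts.

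OSMR, the oncostatin M receptor chain, was the most abundant of the 10 genes per length. It stood at 16.0, 17.3, 15.6 and 12.9 FPKM in rFGF4 replicates 1 to 4, against 13.9, 13.2, 15.04 and 13.4 FPKM in PBS replicates 1 to 4. Of the rFGF4 libraries, 3 lay above every PBS library and replicate 4 lay below all of them. OSMR did not pass at 0.18 on the log2 scale (SE 0.08, 95% interval −0.00025 to 0.35, edgeR adjusted p = 0.200). Without rFGF4 replicate 4 it passed, at 0.23 (adjusted p = 0.0397). Under the other 16 settings run it did not pass (adjusted p 0.195 to 0.392). RICTOR, on the other strand, overlaps the end of OSMR by 7677 bases, with 1148 to 3511 counts in rFGF4 libraries and 1307 to 2813 in PBS libraries.

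IL6ST, the gene of gp130, stood at 7.20, 8.55, 7.15 and 5.06 FPKM in rFGF4 replicates 1 to 4, against 7.94, 6.52, 7.60 and 6.25 FPKM in PBS replicates 1 to 4. The groups overlapped and replicate 4 was the lowest rFGF4 library. The log2 fold change was 0.0027 (SE 0.14, edgeR adjusted p = 0.994), with a 95% interval of the ratio from 0.806 to 1.245. A 78-base pseudogene, AC016596, lies within IL6ST and carried 1937 to 2584 counts in rFGF4 libraries and 1671 to 2255 in PBS libraries, so the IL6ST counts are uncertain.

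LIFR, the LIF receptor chain, was low. It stood at 0.613, 0.669, 0.641 and 0.391 FPKM in rFGF4 replicates 1 to 4, against 0.939, 0.761, 0.838 and 0.662 FPKM in PBS replicates 1 to 4. The groups met only at their edges, where rFGF4 replicate 2 lay just above PBS replicate 4. The difference in mean log2(FPKM + 0.1) was −0.42 (exact permutation test, two-sided, p = 0.0571, where 0.0286 is the smallest p that 4 against 4 allows). In the edgeR fit with a filter at a mean of 0.1 FPKM, LIFR had a log2 fold change of −0.44 (SE 0.17, adjusted p = 0.177). The difference in mean log2(FPKM + 0.1) depended on single libraries: it was −0.27 without rFGF4 replicate 4 (exact permutation p = 0.0857), −0.35 without PBS replicate 1 (exact permutation p = 0.143) and −0.50 without PBS replicate 4 (exact permutation p = 0.0286). The antisense gene LIFR-AS1, which overlaps LIFR by 38619 bases, had 18 to 81 counts in rFGF4 libraries and 47 to 82 in PBS libraries.

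Within each library the receptor chains can be set against each other. The ratio of OSMR to LIFR in FPKM was 26.1, 25.9, 24.3 and 32.99 in rFGF4 replicates 1 to 4 and 14.8, 17.4, 17.9 and 20.2 in PBS replicates 1 to 4. The ratio of IL6ST to LIFR was 11.2 to 12.9 in rFGF4 libraries and 8.46 to 9.44 in PBS libraries. Both ratios were higher in every rFGF4 library than in any PBS library, while the ratio of OSMR to IL6ST overlapped, at 2.02 to 2.55 in rFGF4 libraries and 1.75 to 2.14 in PBS libraries. Both ratios that kept the groups apart are over LIFR. OSMR and IL6ST did not pass by edgeR, nor did LIFR in the fit with a filter at 0.1 FPKM. How often ratios of other gene pairs keep the groups apart was not tested. In the table OSMR and LIFR are neighbours on chromosome 5, LIFR at 38474668 to 38595404 on the minus strand and OSMR at 38845858 to 38945596 on the plus strand, with 250453 bases between them. No source used here names the genome build, so these coordinates are as the table gives them.

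IL6R, the receptor chain for IL-6, varied more between replicates than between groups. It stood at 0.136, 0.229, 0.152 and 0.777 FPKM in rFGF4 replicates 1 to 4, against 0.396, 0.378, 0.662 and 0.781 FPKM in PBS replicates 1 to 4. Of the rFGF4 libraries, 3 lay below every PBS library, and replicate 4 was level with the highest PBS library. The difference in mean log2(FPKM + 0.1) was −0.80 (exact permutation test, two-sided, p = 0.143). Without rFGF4 replicate 4 it was −1.23 (exact permutation p = 0.0286, the smallest that 4 against 3 allows). Leaving out any 1 other library gave −0.94 to −0.60 (exact permutation p 0.143 to 0.343). Counts were 78, 129, 82 and 436 in rFGF4 replicates 1 to 4 and 190 to 393 in PBS libraries.

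The same library was the lowest of its group for OSMR, IL6ST, LIFR, STAT3 and CSF1, and for STAT2, described below. It was the highest of its group for IL6R and IL23A. PBS replicate 4 was likewise the lowest of its group for IL6ST and LIFR and the highest for IL6R and IL23A. For CSF1 and STAT2 it was instead the highest of its group, and for OSMR and STAT3 neither. Whether the shared replicate number has a part in this was not tested. Without rFGF4 replicate 4, CSF1 and STAT2 still passed, at −0.66 and −0.51 on the log2 scale (edgeR adjusted p = 0.00407 and 0.0213). IL23A did not pass without that library, at 0.92 (adjusted p = 0.0643). Mitochondrial genes held 12.9% of the counts of rFGF4 replicate 4, against 9.15% to 11.7% in the other 7 libraries. The part of that share in these results was not tested.

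STAT3 stood at 10.9, 11.4, 11.6 and 10.05 FPKM in rFGF4 replicates 1 to 4, against 11.5, 11.1, 11.8 and 11.8 FPKM in PBS replicates 1 to 4. The groups overlapped, and the log2 fold change was −0.05 (SE 0.06, edgeR adjusted p = 0.660). Its 95% interval as a ratio was 0.884 to 1.06. SOCS3, the inhibitor that STAT3 induces, stood at 3.803, 3.73, 3.07 and 3.18 FPKM in rFGF4 replicates 1 to 4, against 3.14, 3.02, 3.66 and 4.04 FPKM in PBS replicates 1 to 4. Its log2 fold change was 0.01 (SE 0.12, adjusted p = 0.966), with a 95% interval of the ratio from 0.833 to 1.22. For both genes these intervals bound the change of the RNA and say nothing of STAT3 phosphorylation, which RNA-seq does not measure.

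**Figure D3:**
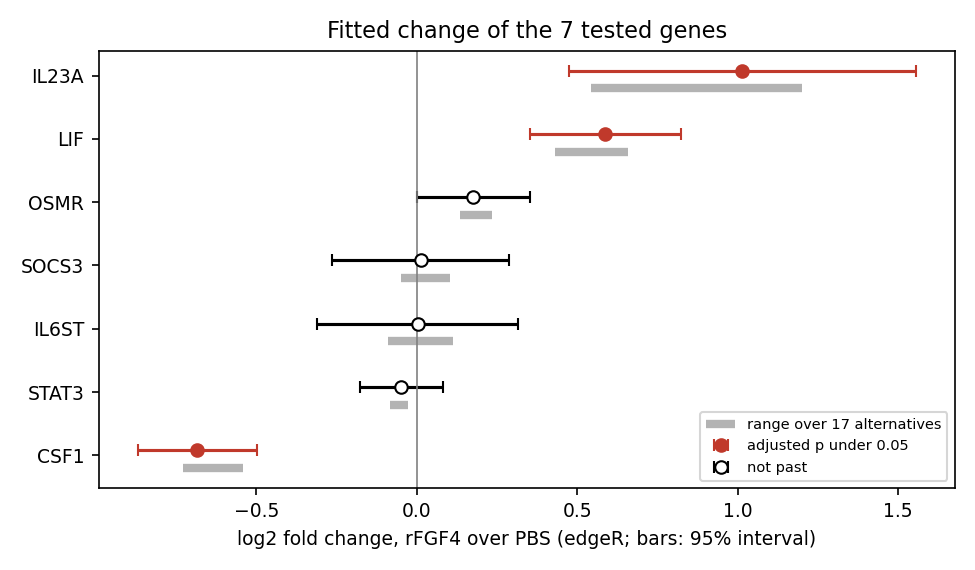
Points are edgeR log2 fold changes of rFGF4 over PBS (horizontal axis) for the 7 tested genes, with 95% intervals, red where the adjusted p was under 0.05; gray bars span the values over the 17 other settings. IL23A (1.02) and LIF (0.59) lie right of 0, CSF1 (−0.68) lies left of it, and the intervals of the other 4 include 0.

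In rFGF4 libraries the order of levels per length was OSMR (15.4 ± 1.85 FPKM), STAT3 (10.98 ± 0.694), IL6ST (6.99 ± 1.44), LIF (3.75 ± 0.167), SOCS3 (3.45 ± 0.375), CSF1 (2.49 ± 0.219), IL23A (1.66 ± 0.295), LIFR (0.578 ± 0.127), IL6R (0.323 ± 0.305) and IL6 (0.111 ± 0.0335) (mean ± SD, n = 4). Ranges of neighbours overlapped between LIF and SOCS3, between LIFR and IL6R and between IL6R and IL6. In PBS libraries the top 3 were the same genes in the same order, at 13.9 ± 0.816, 11.5 ± 0.344 and 7.08 ± 0.820 FPKM. CSF1 (4.07 ± 0.0960) came next, then SOCS3 (3.47 ± 0.475), LIF (2.54 ± 0.336), IL23A (0.827 ± 0.224), LIFR (0.800 ± 0.117), IL6R (0.554 ± 0.199) and IL6 (0.121 ± 0.0472). There, neighbours overlapped between CSF1 and SOCS3, between IL23A and LIFR and between LIFR and IL6R.

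The rest of the pathway was examined in lists of 81 genes, of which 42 were at the level for testing. By edgeR 0 of them rose and 3 fell, beside 5.49% and 4.54% of all tested genes. At an unadjusted p under 0.05 there were 2 higher and 7 lower, beside 13.5% and 11.6% of all tested genes. DESeq2 called 1 higher and 4 lower, beside 8.53% and 7.35% of the 11515 genes to which it gave an adjusted p. The median log2 fold change was −0.08 over the 42 genes and 0.0015 over all 11536.

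Among the other IL-6 family ligands, CLCF1 (cardiotrophin-like cytokine factor) stood at 3.82 to 4.62 FPKM in rFGF4 libraries and 3.82 to 4.25 FPKM in PBS libraries, at 0.15 on the log2 scale (SE 0.10, edgeR adjusted p = 0.396). CTF1, cardiotrophin, ranged from 0.375 to 1.69 FPKM in rFGF4 libraries and from 1.10 to 1.69 FPKM in PBS libraries (log2 fold change −0.46, SE 0.40, adjusted p = 0.541). These were the tested ligands of 9 listed. OSM, the gene of oncostatin M and so of the ligand for the most abundant receptor chain here, was listed at 0 in all 8 libraries, as were IL27 and IL31. None of the 7 other receptor genes of the IL-6 and IL-12 families reached the level for testing. IL27RA, a receptor chain for interleukin-27, was the highest at 1.115 ± 0.199 FPKM in rFGF4 libraries and 0.772 ± 0.134 FPKM in PBS libraries, and the groups overlapped (exact permutation test, two-sided, p = 0.0571). IL11RA averaged 0.440 ± 0.104 FPKM in rFGF4 libraries and 0.549 ± 0.0559 FPKM in PBS libraries (SD, n = 4 each).

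CSF2, the gene of the granulocyte-macrophage colony-stimulating factor, was counted in every rFGF4 library and hardly in PBS libraries. It had 49, 38, 30 and 33 counts in rFGF4 replicates 1 to 4, against 0, 0, 6 and 8 counts in PBS replicates 1 to 4. In FPKM these were 0.709, 0.562, 0.459 and 0.477 in rFGF4 libraries and 0, 0, 0.103 and 0.123 in PBS libraries, and the groups did not overlap. The exact permutation test (two-sided) of mean log2(FPKM + 0.1) gave p = 0.0286, the smallest that 4 against 4 allows. Any gene whose groups do not overlap gets this p. Groups apart with rFGF4 higher held for 8.76% of the genes tested at 1 FPKM. The share among genes as low as CSF2 was not counted. The PBS libraries all lay under 12 counts, taken as 3 fragments, so no fold change is given. In the edgeR fit with a filter at a mean of 0.1 FPKM, where 3.42% of 17964 genes rose, CSF2 did not pass (adjusted p = 0.0693). It reached that filter through the rFGF4 libraries, with a mean of 0.552 FPKM there and 0.056 FPKM in PBS libraries. The other colony-stimulating factor and receptor genes listed, CSF3, IL34, CSF1R, CSF2RA, CSF2RB and CSF3R, peaked at 0.108 FPKM or less in every library.

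**Figure D4:**
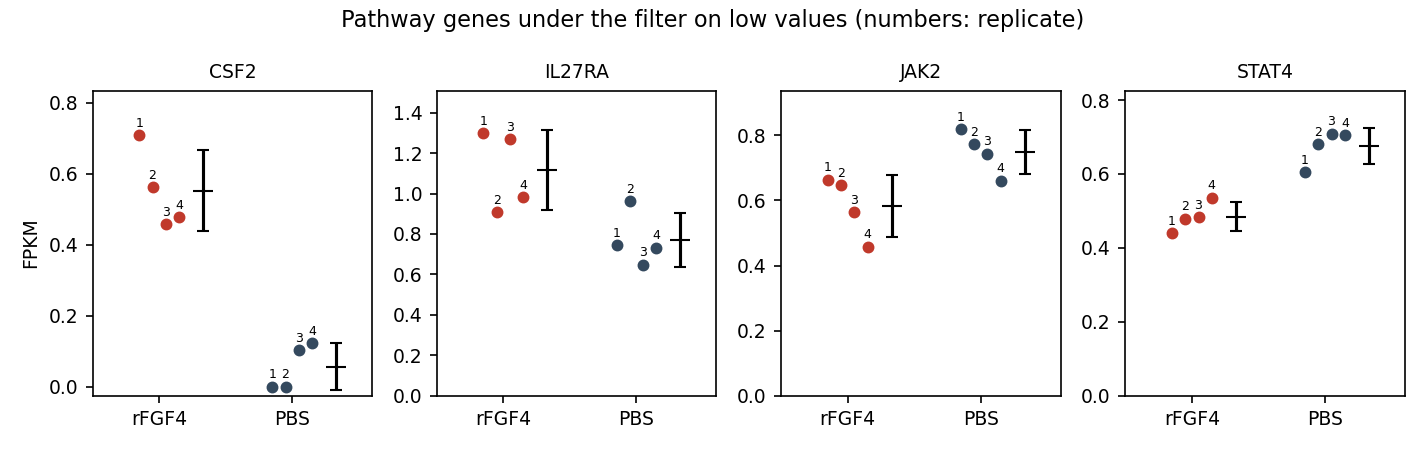
FPKM (vertical axis) of 4 pathway genes under the level for testing, in rFGF4 libraries (red, left) and PBS libraries (dark, right), with replicate numbers and mean ± SD. CSF2 is at 0.459 to 0.709 in rFGF4 libraries and at 0 to 0.123 in PBS libraries, and STAT4 is lower in every rFGF4 library than in any PBS library, while IL27RA and JAK2 overlap.

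Of the JAK kinases, which carry the receptors' signal, JAK1 stood at 10.9 to 14.8 FPKM in rFGF4 libraries and 14.4 to 17.5 FPKM in PBS libraries (log2 fold change −0.26, SE 0.09, edgeR adjusted p = 0.131). TYK2 stood at 4.53 to 5.33 FPKM in rFGF4 libraries and 5.34 to 6.40 FPKM in PBS libraries (−0.17, SE 0.07, adjusted p = 0.185). Neither passed. JAK2, named with STAT4 after their values were seen, averaged 0.583 ± 0.0944 FPKM in rFGF4 libraries and 0.749 ± 0.0667 FPKM in PBS libraries (exact permutation test, two-sided, p = 0.0571, n = 4 each). STAT4 averaged 0.485 ± 0.0395 FPKM in rFGF4 libraries and 0.675 ± 0.0481 FPKM in PBS libraries (exact permutation test, two-sided, p = 0.0286, n = 4 each). In the edgeR fit with a filter at a mean of 0.1 FPKM, where 3.07% of genes fell, neither passed (adjusted p = 0.190 for JAK2 and 0.105 for STAT4).

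Of the 4 other STAT genes tested, STAT2, which acts in type I interferon signalling, fell. It stood at 2.75, 3.15, 2.98 and 1.69 FPKM in rFGF4 replicates 1 to 4, against 4.29, 3.86, 4.004 and 4.81 FPKM in PBS replicates 1 to 4, with no overlap. The log2 fold change was −0.66 (SE 0.18, edgeR adjusted p = 0.0493), just under the threshold. The call ended without any 1 library except rFGF4 replicate 4, under 3 other filters and with limma on log2(FPKM + 0.1) (adjusted p 0.0531 to 0.113 over these). In the table STAT2 and IL23A end 1267 bases apart on chromosome 12, on opposite strands and without overlap. IL23A rose where STAT2 fell, and a link between these changes was not tested. PAN2, whose near end lies 120 bases from IL23A on its other side, had a log2 fold change of −0.23 and did not pass (adjusted p = 0.209). STAT6 (0.04, adjusted p = 0.654) did not pass either.

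Among the inhibitors, of 12 tested SOCS, PIAS and phosphatase genes 0 passed by edgeR, 1 was lower at an unadjusted p under 0.05, and DESeq2 called that gene, PTPN6, as lower (edgeR log2 fold change −0.27, SE 0.09, adjusted p = 0.0945). PTPN6 is the phosphatase SHP-1 and was named after its value was seen. The most abundant of the list, PTPN1 and PTPN11, had log2 fold changes of 0.01 (SE 0.05) and 0.05 (SE 0.12). The metalloproteases ADAM10 and ADAM17, which shed the IL-6 receptor, had −0.05 (SE 0.14) and −0.33 (SE 0.17, adjusted p = 0.266).

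Of 20 tested genes known as STAT3 targets, 0 rose and 2 fell by edgeR, beside 5.49% and 4.54% of all tested genes. At an unadjusted p under 0.05 there were 2 higher and 2 lower, beside 13.5% and 11.6% of all tested genes, and DESeq2 called 1 higher and 2 lower, beside 8.53% and 7.35%. The list median was −0.10. IRF1, an interferon regulatory factor, stood at 6.09 to 7.105 FPKM in rFGF4 libraries and 9.37 to 10.9 FPKM in PBS libraries (log2 fold change −0.57, SE 0.09, adjusted p = 0.00639). BCL6, a transcriptional repressor, stood at 1.20 to 1.62 FPKM in rFGF4 libraries and 1.99 to 2.20 FPKM in PBS libraries (−0.60, SE 0.11, adjusted p = 0.0135). Both calls held under all 17 other settings. The abundant members LCN2 (lipocalin) and S100A9 (a calgranulin) had log2 fold changes of −0.03 (SE 0.11) and −0.14 (SE 0.12). BCL3, an I kappa B family member named after its value was seen, had 0.36 (SE 0.10, edgeR adjusted p = 0.0627). It passed by DESeq2 (adjusted p = 0.0145) and by limma on log2(FPKM + 1) and log2(FPKM + 0.1) (adjusted p = 0.0479 and 0.0453).

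**Figure D5:**
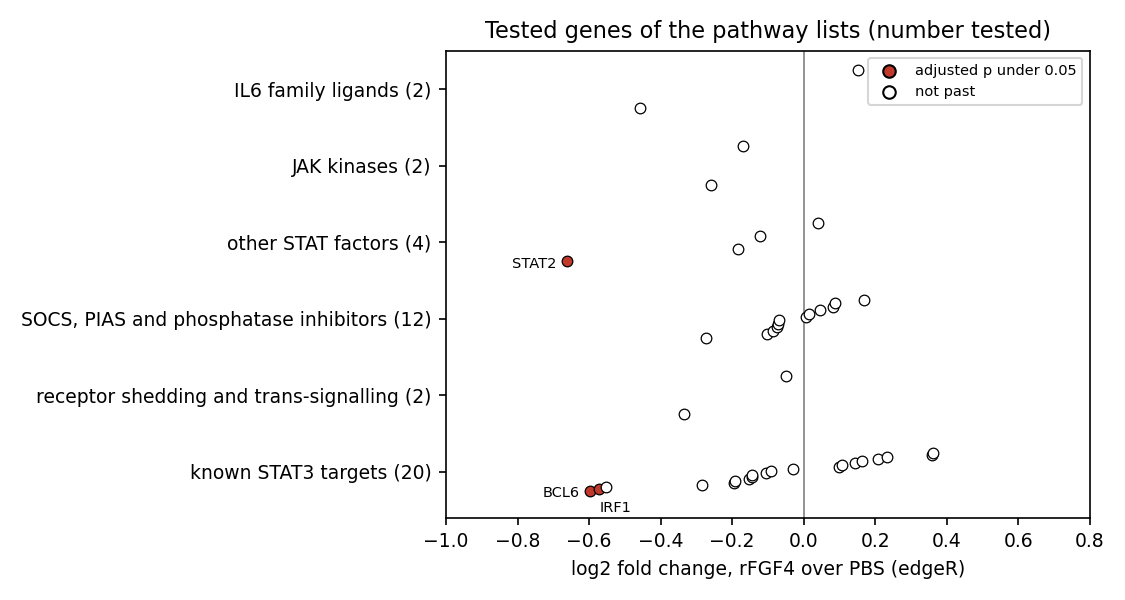
Each circle is a tested gene of a pathway list, placed by its edgeR log2 fold change of rFGF4 over PBS (horizontal axis); rows are lists with the number tested. The filled circles, STAT2 (−0.66), BCL6 (−0.60) and IRF1 (−0.57), are the genes with an adjusted p under 0.05, all left of 0.

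The tested genes whose log2 CPM (counts divided by library size, with TMM scaling) followed the called genes most closely were sought over the 8 libraries, which differ by group, so that any gene that differs between the groups correlates. For LIF they included SH2B3, an adaptor protein that restrains JAK signalling (Pearson r 0.988), and the transcription factor NFE2L3 (0.986), which rose by 0.50 and 0.59 on the log2 scale. The clone-named gene AL162258 (0.986) was the third and rose the most of the 3, by 1.57 (edgeR adjusted p = 0.000819). For IL23A they included the mitochondrial helicase gene SUPV3L1 (0.985), with a log2 fold change of 0.23, which did not pass (edgeR adjusted p = 0.0648; 0.0401 without PBS replicate 4). For CSF1 they were AP2A1, a subunit of the clathrin adaptor complex (0.991), KANK2 (0.990) and the kinase gene TESK2 (0.989), with log2 fold changes of −0.20, −0.40 and −1.14. Of these AP2A1 (adjusted p = 0.0377) no longer passed without any 1 library except rFGF4 replicate 4 (adjusted p 0.0676 to 0.101).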

How the data were processed

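The authors deposited 1 table of 8 libraries (4 rFGF4, 4 PBS) with FPKM and whole-number counts per gene, per the file headers. The submitters' processing notes name HISAT2 2.0 and StringTie 1.3.0 without roles; no source used here states the build, annotation or strand use. FPKM of 0 is written as 0.0001 and was read as 0. Low counts pile up at 4 and 8, so 1 fragment may be worth about 4 counts.

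The 521 genes of the Y chromosome with XIST and TSIX were left out because the table is human. Genes with a mean of at least 1 FPKM (11536) were tested on the counts with edgeR 4.0.16 (TMM, quasi-likelihood, two-sided) in R 4.3.3, with Benjamini-Hochberg adjustment over all of them and a threshold of 0.05; no list-wide p is given. Genes under that level got an exact permutation test on log2(FPKM + 0.1). SE is the log2 fold change over the root of the test's F, and the 95% intervals use it. The method was tested on simulated counts. DESeq2 1.42.0, limma 3.58.1, other filters and scalings, a replicate block and leaving out each library were the alternatives.

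The 10 members and the lists were chosen with earlier results of these data known. Named were the members, pathway genes past the threshold, the 2 further genes of highest mean FPKM per list with values above 0, and the 3 genes most correlated with LIF, IL23A and CSF1; a few of these are not reported here. No sequence is shown, since the reference at hand is mouse.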

Additional observations from a re-analysis of the deposited data

Results flagged for a closer look

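Over 13 genes (the 10 members and the 3 pathway genes past the threshold), each group of 4 libraries was examined for a library far from the others, 26 groups in all, of which chance marks about 1 in 20. A single library stood out. IL6R was at 0.777 FPKM in rFGF4 replicate 4, against 0.136 to 0.229 FPKM in rFGF4 replicates 1 to 3, a gap of 0.854 of the group's range.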

How the results depend on the processing

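Genes called higher numbered 633 and lower 524. DESeq2 called 982 and 846, and leaving out 1 library gave 326 to 622 and 275 to 547. Members called higher numbered 2, but 1 with no filter on low values and 1 to 2 with a library left out. IL23A was the one lost in these, and without rFGF4 replicate 4 it was lost too (adjusted p = 0.0643) while OSMR passed (0.0397), so the count stayed at 2; 1 member was lower in every setting. Values near 0 changed sign. IL6ST was −0.00070 by DESeq2, −0.0085 with upper-quartile scaling, −0.029 and −0.035 by limma on log2(FPKM + 1) and log2(FPKM + 0.1), and −0.091 to 0.11 with a library left out. SOCS3 was −0.0043 and −0.0047 by these limma fits and −0.049 to 0.10 with a library left out, and PTPN1 was −0.0117 and −0.0121 by the same fits. With a library left out, PTPN1 ranged from −0.021 to 0.035, IL6 from −0.15 to 0.083, PTPN11 from −0.042 to 0.15, ADAM10 from −0.16 to 0.034 and LCN2 from −0.088 to 0.057. The cause was not tested.

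For same-numbered libraries, replicates 1 to 4, the correlations of deviations from the group means were 0.124, 0.061, −0.021 and 0.266. Between libraries of different number they ran from −0.186 to 0.078. Replicates 1 and 4 thus lay above every pair of different number, while not every library correlated best with its own number. What the number marks is not stated. With the replicate number as a block 561 genes were higher and 452 lower, LIF, IL23A and CSF1 stayed past the threshold (adjusted p = 0.0349, 0.0207 and 0.0174), IL6ST was −0.011, STAT2 (0.114) and AP2A1 (0.0703) did not pass, and JAK1 (0.0377) and SUPV3L1 (0.0470) did. For LIFR, IL6R, IL6 and CSF2, settings that keep the filter and all libraries gave no fit. AP2A1 did not pass under 11 of 17 settings.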
